A study of Homo sapiens with 4 samples.

Results

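The regions described here are the background of a pull-down: places in the genome where antisense probes against ZNF609 and control probes against LacZ both gave a peak. Members were chosen by position. A member is an even or odd peak (named after the 2 sets of ZNF609 probes) that shared at least 1 base with a LacZ peak, and the LacZ peaks it touched, with strand ignored. This gave 74 of 502 even peaks (14.7%), 88 of 542 odd peaks (16.2%) and 123 of 722 LacZ peaks (17.0%), or 285 of 1766 peaks. Merged, they formed 123 of the 1549 regions of the 3 lists. Of these regions, 35 held even and LacZ peaks without odd, 49 held odd and LacZ peaks without even, and 39 held peaks of all 3. In 1 of the 39, in ABCF1, the odd peak touched the even peak and not the LacZ peak. Since presence in the lists chose the members, their counts, ranks and scores below are descriptions. The label holds in the sense that each region has a LacZ peak. It does not say that the reads of the ZNF609 probes there are all background, because lists of peaks do not divide reads by origin.

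The cells were RD, an established line from a rhabdomyosarcoma of the embryonal type, which is a tumour of the skeletal muscle lineage. An even and an odd set of biotinylated probes were directed at exon 2 of ZNF609, the exon that forms the circular RNA circ-ZNF609, and a control set at the LacZ mRNA, which is bacterial. The groups shared the RD cells, cultured alike, and differed in the probes, and each of the 3 pull-downs was 1 library, so there was no replicate error and no test between probe sets. Differences between probe sets and differences between libraries cannot be told apart. A sample of total lysate, the fourth of 4 samples, was not analysed here. The authors' lists held 502 even, 542 odd and 722 LacZ peaks, each with a value read here as its mean number of reads per bin of 170 bases, its p-value and an unnamed score. Total sequencing depth is unknown, and the reads in peaks came to 482418, 279415 and 219401 in the same order.

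In a pull-down with antisense probes, biotin-labelled DNA strands are hybridised to RNA in a cell lysate and recovered on streptavidin. RNA that does not pair with the probes by design also comes down, through adhesion to the beads or the tubes, through chance base pairing, or through proteins, so a probe set without a target in the cell is run alongside to show this background.

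A few shared regions reached the annotated start of a gene or a microRNA hairpin, and their RefSeq sequences on GRCh38.p14 are shown because they give the letters of RNA or promoter DNA that lay in a shared region. Each of the first 3 holds the 60 bases before an annotated start and the 30 bases from it on, 5′ to 3′ on the strand of the gene, with the bases inside the shared region in capitals. The fourth is the hairpin of a microRNA on the minus strand, with the bases inside the even peak in capitals.
FAM32A, chr19:16185350-16185439, plus strand: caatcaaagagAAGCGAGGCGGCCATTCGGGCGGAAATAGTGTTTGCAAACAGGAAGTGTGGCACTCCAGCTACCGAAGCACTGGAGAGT
PSMD2, chr3:184299181-184299270, plus strand: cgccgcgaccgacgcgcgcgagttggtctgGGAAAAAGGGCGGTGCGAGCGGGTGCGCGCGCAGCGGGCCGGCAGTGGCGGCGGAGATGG
KANK2, chr19:11197516-11197605, minus strand: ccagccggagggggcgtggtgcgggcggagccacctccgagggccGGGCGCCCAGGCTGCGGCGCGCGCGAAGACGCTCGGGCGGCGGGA
MIR6782 hairpin, chr17:44207771-44207839, minus strand: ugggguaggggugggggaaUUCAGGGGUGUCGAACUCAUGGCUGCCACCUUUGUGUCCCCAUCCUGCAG

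FAM32A had an odd peak with 207 reads per bin and a LacZ peak with 116. PSMD2, which encodes a subunit of the proteasome, had 2 regions shared by odd and LacZ, of which the one at the start had 219 and 127.5 reads per bin. The KANK2 region had 296 reads per bin with even and 85 with LacZ probes. PRKAR1A and CHMP4A also had a region of odd and LacZ that touched a promoter window, which runs from 250 bases before to 50 bases after a start. In all, 5 of 123 shared regions (4.07%, exact Clopper-Pearson 95% interval 1.33 to 9.23) touched such a window, against 5 of 374 regions of the even list alone (1.34%, 0.435 to 3.09), 12 of 399 of the odd list alone (3.01%, 1.56 to 5.19) and 14 of 599 of the LacZ list alone (2.34%, 1.28 to 3.89). These intervals, like those below, cover counting error alone, and they overlap. The median width was 340 bases for shared regions and those of LacZ alone, and 170 for those of even alone and odd alone. A wider region can touch a window more easily, and the part of width was not tested. The promoter table held 69 of the 89 genes with shared regions. MIR6782 lies within UBTF, which encodes a factor of ribosomal RNA transcription. The even UBTF peak covered 4 bins from 44207141 to 44207820 on chromosome 17, with 938.8 reads per bin, and took in 50 of the 69 bases of the hairpin. The LacZ peak covered 44207311 to 44207650, with 202 reads per bin, and did not reach it. ATXN7L3-AS1 also spans this place, and without strand these genes could not be told apart.

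Peaks consist of whole bins, so the smallest overlap was 170 bases, which was seen in 37 of 74 overlaps of even and LacZ peaks and 50 of 88 of odd and LacZ peaks. The even peaks that overlapped by 1 bin had a median of 376 reads per bin, and the odd ones 297.8. Just outside the rule lay 4 even peaks and 6 odd peaks within 200 bases of a LacZ peak that they did not touch, with medians of 234 and 198.8 reads per bin. The peaks had the same bounds in 43 of the 74 even overlaps and 46 of the 88 odd overlaps.

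Shared regions lay almost throughout in protein-coding genes, as did most regions of the other classes. Of the 123, 122 (99.2%, 95.6 to 99.98) lay in 89 annotated genes, each of them protein-coding. Of the regions not shared, 94.4% (91.5 to 96.5) of the even list alone, 98.5% (96.8 to 99.4) of the odd list alone, 87.0% (84.0 to 89.6) of the LacZ list alone and 100% (93.4 to 100) of the 54 of even and odd without LacZ lay in genes. The region outside genes (chr17:13969411-13969920) had 440 even and 161.3 LacZ reads per bin, and each of its bins held the fixed score described further on. Without peaks over that score, 100% (96.9 to 100) of 116 shared regions lay in genes. Chromosome 19 held the largest number of shared regions, 15 of 123 (12.2%), and 8.78% of the regions of all kinds. Chromosome 18 held 0 shared regions and 12 of all kinds. The 8 regions in NCL, UBTF, PPP5C, CEP250, DTWD2, FABP3 and TSPYL1 lay in more than 1 gene, and the DTWD2 region also lay in PTMAP2, a pseudogene of the prothymosin alpha gene. Annotated pseudogenes carry the names of 16 of the 89 genes, PRRC2C, NCL, ANKRD11, EIF2S2, PSMD2, ENAH, EZR and DONSON among them. Values of these genes are uncertain, since near-identical copies could share reads with them. Whether regions were exonic or intronic was not determined here.

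Shared peaks had more reads than the rest of their list. The median shared even peak had 430.2 reads per bin, against 271.5 for even peaks that were not shared. In the odd list the medians were 311.5 and 210.1, and in the LacZ list 132 and 110. Placed within their list by reads per bin, where 0% is the most reads, shared peaks had median ranks of 31.9% (even), 30.1% (odd) and 40.2% (LacZ). The peaks not shared had medians of 53.9%, 53.04% and 51.8%. By p-value the medians of shared peaks were 30.2%, 45.8% and 36.8%, so the odd shared peaks stood less far forward by p-value than by reads. They made up 16.2% of the odd peaks and held 27.0% of the reads in odd peaks. In the even list the shared 14.7% of peaks held 23.2% of the reads, and in the LacZ list the shared 17.0% held 21.0%.

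The share was largest at the top of each list. In the 20% of the even list with the most reads, 26 of 101 peaks (25.7%, 17.6 to 35.4) were shared, and in the 20% with the fewest 4 of 101 (3.96%, 1.09 to 9.83). In the odd list the top 20% had 34 of 109 (31.2%, 22.7 to 40.8) and the later groups of that size between 10.2% and 16.7%. In the LacZ list the top 20% had 36 of 145 (24.8%, 18.03 to 32.7) and the later groups between 13.2% and 17.4%. Of the 10 odd peaks with the most reads, 6 were shared with LacZ: TRIM44 at rank 1, RBM25 at 6 and 9, PRRC2C at 7, TNNT2 at 8 and PTMS at 10. Of the 10 leading even peaks 2 were shared, PRRC2C at rank 5 and NCL at rank 7, and of the 10 leading LacZ peaks 3 were shared, in CREBBP, PTMS and ENAH. Shared peaks were also wider, with 1 bin in 35.1% of even, 38.6% of odd and 38.2% of LacZ shared peaks and in 53.7%, 56.8% and 48.7% of the others. A wider peak can meet another peak more easily, and the part of width in the sharing was not tested.

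**Figure D1:**
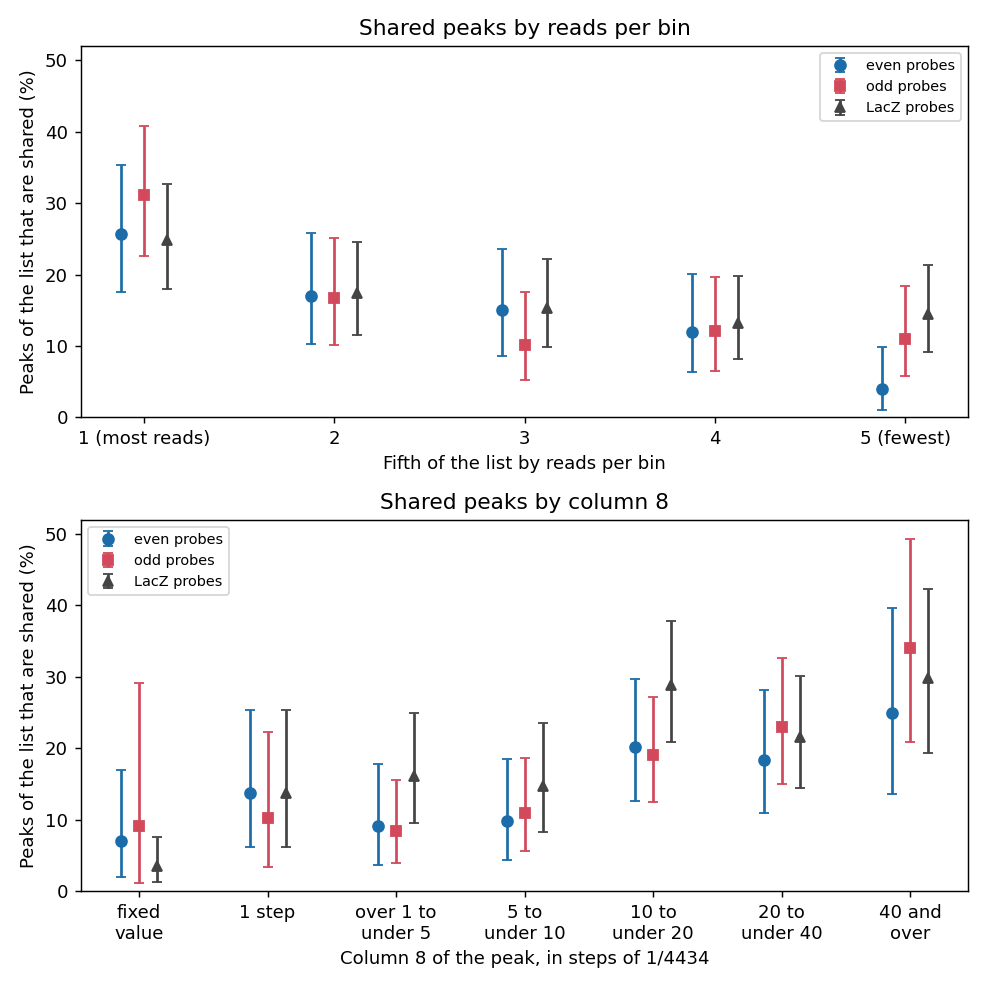
Upper panel: share of the peaks of each list that were shared (percent), in steps of 20% of the list from most to fewest reads per bin. Lower panel: the same share by column 8, in steps of 1/4434, with the fixed value apart. Points are shares and bars are exact 95% intervals for counting error. In the upper panel the top 20% stands at 25.7%, 31.2% and 24.8% in the even, odd and LacZ lists. In the lower panel the LacZ share runs from 3.55% over the fixed value to 29.9% at 40 steps and over.

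The unnamed score in column 8 belongs to the bin and not to the library. It was equal in each of the 141 pairs of peaks with the same bounds in different lists. It is given here in steps of 1/4434, of which its values are whole multiples per bin, apart from bins with a fixed value of 0.01 (44.3 steps). No label or header says what it measures. Once peaks over the fixed value were left out, shared peaks had higher scores than the rest, with medians of 13 steps against 9 in the even list, 16.7 against 9 in the odd list and 14 against 10 in the LacZ list. With those peaks kept, the medians of the LacZ list were in the opposite order, 15.3 steps for shared and 19.7 for other peaks. The fixed value lay under 27.2% (23.7 to 31.0) of LacZ peaks that were not shared and under 4.88% (1.81 to 10.3) of those that were. In the even list these shares were 12.4% (9.42 to 15.9) and 5.41% (1.49 to 13.3), and in the odd list 4.41% (2.71 to 6.72) and 2.27% (0.276 to 7.97), with overlapping intervals.

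The share of peaks that were shared was larger at the highest scores than at the lowest, without a steady rise between them. In the odd list it was 10.2% (3.40 to 22.2) at 1 step, 8.49% (3.96 to 15.5) over 1 to under 5 steps and 34.04% (20.9 to 49.3) at 40 steps and over. In the even list these values were 13.8% (6.15 to 25.4), 9.09% (3.73 to 17.8) and 25.0% (13.6 to 39.6). In the LacZ list they were 13.8% (6.15 to 25.4), 16.2% (9.53 to 24.9) and 29.9% (19.3 to 42.3), with 28.8% at 10 to under 20 steps and 21.6% at 20 to under 40. The intervals at 1 step and at 40 steps and over overlapped in each list. Scores and reads moved together, with a median rank by reads of 79.3% for even peaks at 1 step and 10.8% for those at 40 steps and over, so the lists were also divided by both, with peaks over the fixed value left out. That left 249 odd, 194 even and 211 LacZ peaks of the 50% of each list with the most reads. Among these odd peaks, 26.4% (20.1 to 33.4) were shared at 10 steps and over and 10.4% (4.30 to 20.3) under 10 steps. These intervals just overlapped. Among the even peaks the shares were 25.9% (18.9 to 33.9) and 25.5% (14.3 to 39.6), so in the stronger even peaks the score made no visible difference at this number of peaks. Among the LacZ peaks they were 32.9% (25.7 to 40.8) and 28.3% (16.8 to 42.3), with overlapping intervals. In the 50% of each list with fewer reads, the shares at 10 steps and over and under 10 steps were 15.9% and 9.52% (odd). They were 11.6% and 6.06% (even) and 18.9% and 11.6% (LacZ), and the intervals overlapped in each list.

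The 39 regions of all 3 lists had more reads and higher scores than those of a pair of lists. The strongest even peak of such a region had a median rank of 21.1% of its list, against 45.02% in regions of even and LacZ. For odd peaks the medians were 13.8% and 49.4%. For LacZ peaks they were 20.8% in regions of all 3 and 48.8% in each of the paired classes. Without the fixed value, LacZ peaks in regions of all 3 had a median score of 27 steps, against 10.5 in regions of even and LacZ and 15.3 in regions of odd and LacZ. The 54 regions of even and odd without LacZ, which lie outside the rule, had median ranks of 41.1% by their even and 38.2% by their odd peaks and median scores of 14 and 15.8 steps.

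PTMS (gene ID 5763, chromosome 12 at 6766363 to 6770952), which encodes parathymosin, a small acidic nuclear protein, came first by mean rank over the lists. Its shared peak was 1 bin at 6766681 to 6766850, with 1750 even, 1199 odd and 844 LacZ reads, at ranks 15, 10 and 8. This peak had the highest score among the shared peaks, 97 steps. A further PTMS region of even and odd without LacZ had 186 even and 239 odd reads. PRRC2C (gene ID 23215), which encodes a proline-rich protein with coiled coils, followed on chromosome 1 at 171532211 to 171532890 with 6685 even, 1268 odd and 424.5 LacZ reads per bin over peaks of different width. CHAF1A encodes the large subunit of a chromatin assembly factor that places histones on new DNA. Its 2 shared regions on chromosome 19 were both found by all 3 probe sets. The stronger, at 4422551 to 4422890, had 1768, 769.5 and 282 reads per bin in even, odd and LacZ, and the other had 976, 531 and 204. CHAF1A had 1 further region in the odd list alone. GPATCH4, a nucleolar protein gene, had 1653 even and 413.4 LacZ reads per bin and a pair of odd peaks with 461 and 313. PDCD11, which acts in ribosomal RNA processing, had 1608, 567 and 208.3. PTMS, PRRC2C, CHAF1A and PDCD11 kept the order even, odd, LacZ in unscaled reads, an order that says nothing of recovery. In GPATCH4 the weaker odd peak lay below the LacZ peak.

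Several other regions had another order. Those named next, TRIM44 apart, were picked after their values were seen. In TRIM44, of the tripartite motif family, the odd list had 2324 reads per bin, the even list 517 and the LacZ list 250. ENAH, which encodes a regulator of actin filament growth, had 743 reads per bin with LacZ probes, 456 with even and 433.7 with odd probes. In LNX2, a ubiquitin ligase gene, AVPI1 and MAP3K12, a kinase gene, the LacZ peak had more reads than the odd peak and fewer than the even peak. SLC2A11, of the glucose transporter family, had 324.5 reads per bin in the LacZ list, 295.3 in the odd and 178.5 in the even list. NCL and SREK1 kept the order even, odd, LacZ, with wide gaps between the lists. NCL, which encodes the nucleolar protein nucleolin, had 3236 reads per bin with even probes, 550.5 with odd and 112 with LacZ probes, and its region also spans SNORD82. SREK1, a splicing regulator gene, had 1891, 352 and 55.

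**Figure D2:**
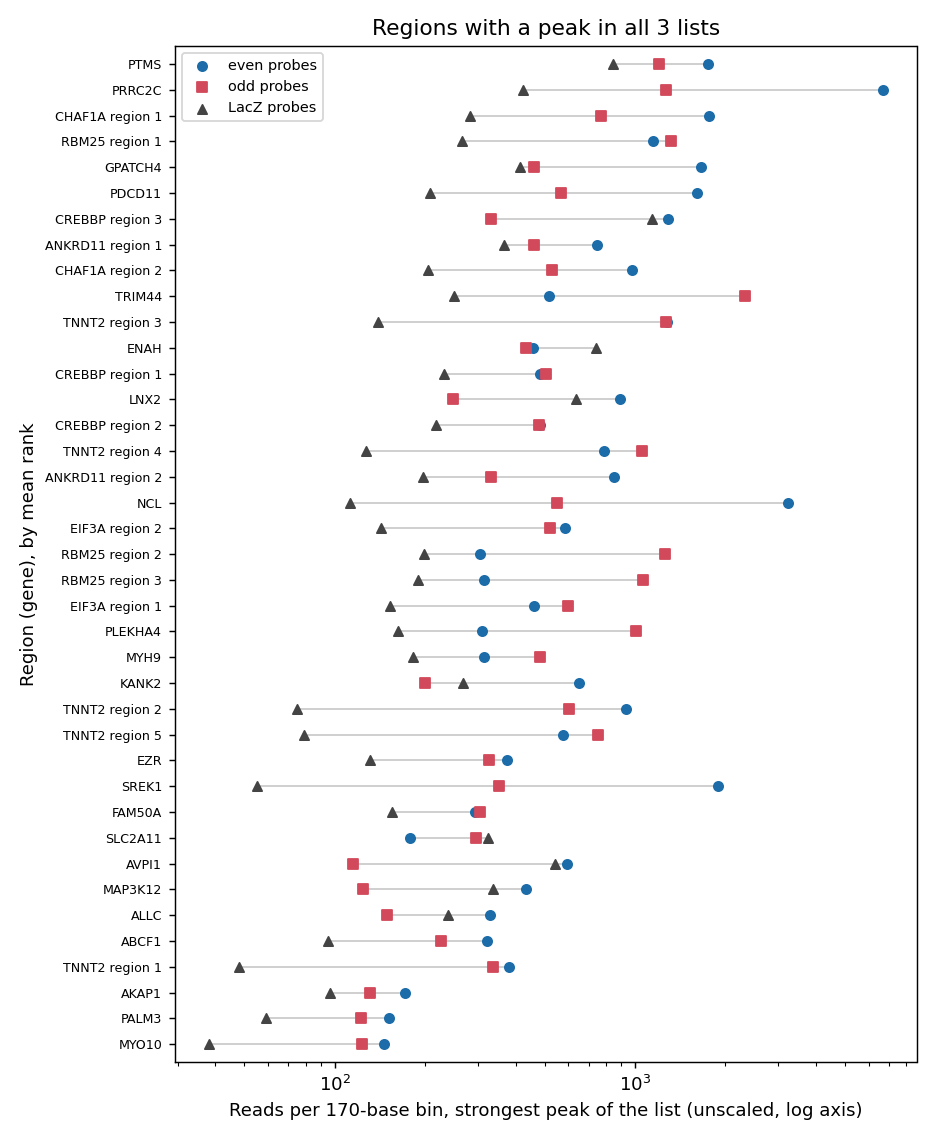
Reads per bin of 170 bases (log axis, unscaled) of the strongest peak in the even, odd and LacZ lists for the 39 regions with a peak in all 3, 1 row per region, ordered by mean rank; several regions of a gene are numbered along the chromosome. The LacZ value is the lowest of the 3 in most rows, and ENAH and SLC2A11 are rows where it is the highest.

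A library has 1 scale, so the ratio of reads between lists would be the same everywhere if the regions were recovered in fixed proportion. At the 43 regions where even and LacZ peaks had the same bounds, the unscaled ratio of even to LacZ reads had a median of 2.44 and ran from 0.55 (counting interval 0.482 to 0.627) in SLC2A11 to 23.03 (17.8 to 30.3) in DDX23, a 41.9-fold range. At 46 such regions of odd and LacZ the median was 2.57 and the ratio ran from 0.213 (0.184 to 0.246) in AVPI1 to 9.56 (7.57 to 12.2) in TNNT2, a 44.9-fold range. The ratio also spread widely between the sets against the same target. Over 52 regions where even and odd peaks had the same bounds, LacZ peak or not, the ratio of even to odd reads ran from 0.242 to 19.03. This is a 78.6-fold range, but 30 of these regions had no LacZ peak, among them those in ANP32B with the highest ratios, 15.5 and 19.03. At the 22 with a LacZ peak as well it ran from 0.242 to 5.88, a 24.3-fold range. In regions of all 3 lists the range was 22.7-fold for even over LacZ reads (25 regions) and 44.9-fold for odd over LacZ reads (22 regions). These spreads go beyond counting error and no scaling of the libraries removes them, and a wide spread was also seen between the ZNF609 probe sets. Reads without molecular identifiers can be PCR copies and are not independent molecules, and the part of copies in the spread was not tested. Across the 39 regions of all 3 lists, Spearman's rho of the strongest peaks was 0.427 between even and odd peaks. Between even and LacZ peaks it was 0.336, and between odd and LacZ peaks 0.0516. These are descriptions over 39 regions that share 3 libraries and lie in 28 genes.

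**Figure D3:**
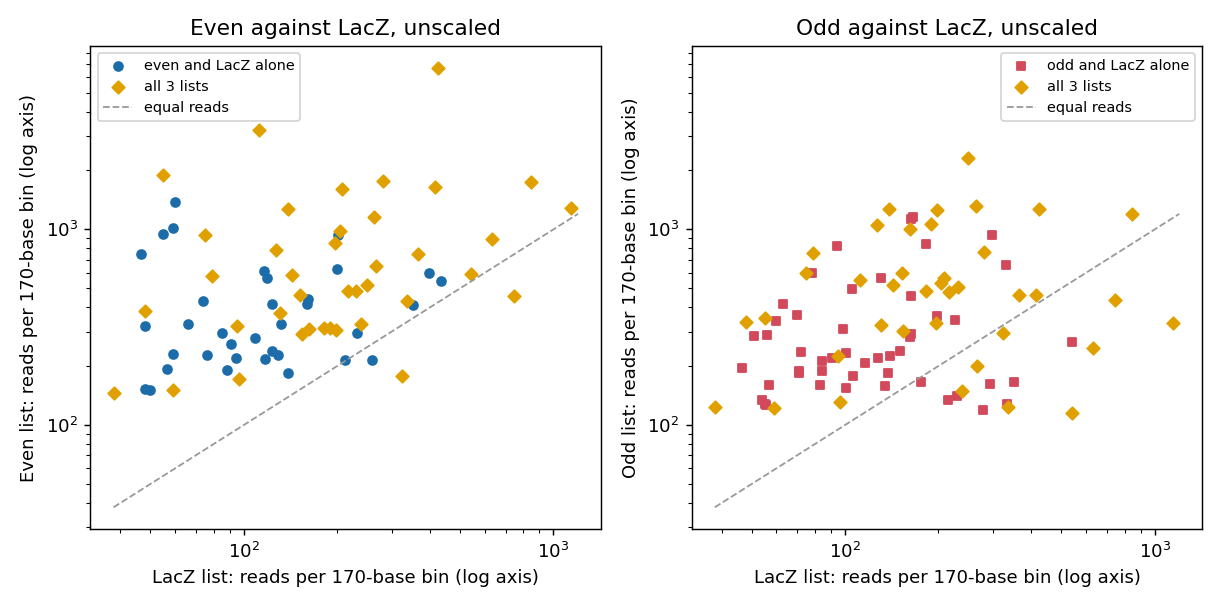
Reads per bin of 170 bases (log axes, unscaled) of the strongest even peak (left) or odd peak (right) of a shared region against the strongest LacZ peak; diamonds are regions of all 3 lists, circles and squares regions of 1 ZNF609 list and LacZ, and the dashed line marks equal reads. The points spread widely around any line parallel to it, with DDX23 and AHNAK2 far above it in the left panel and AVPI1 below it in the right panel.

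In 22 of the 89 genes there were 2 or more shared regions, which held 55 of the 123 regions, and 8 genes had 3 or more. TNNT2 (gene ID 7139), which encodes cardiac troponin T and is also made in immature skeletal muscle, had 5, on chromosome 1 between 201366701 and 201373330, and each was found by all 3 probe sets in bins with the same bounds. Even reads per bin were 381, 936, 1276, 786 and 575 along the chromosome, odd reads 336, 601, 1264, 1052 and 755, and LacZ reads 48, 75, 139, 127 and 79. The even ranks lay between 25 and 178 of 502 and the odd ranks between 8 and 145 of 542, whereas the LacZ ranks lay between 273 and 656 of 722. At each of the 5 places TNNT2 thus stood further forward in both ZNF609 lists than in the LacZ list, as percent of the list. Its least forward even and odd peaks, at 201366701, stood at 35.5% and 26.8%. It had 3 further regions in the odd list alone.

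RBM25 (gene ID 58517), which encodes a splicing regulator with a long charged region, had 4 shared regions within chromosome 14 at 73103231 to 73111050 and no other peak. Odd reads per bin were 1153, 1318, 1259 and 1060.5, at ranks 11, 6, 9 and 14, and LacZ reads were 166, 264.3, 198 and 190, at ranks 210, 93, 150 and 163. Even probes gave no peak at the region with the lowest coordinates and 1152, 305 and 315 reads per bin at the others. CREBBP (gene ID 1387), which encodes a histone acetyltransferase, had 3 regions of all 3 lists. At 3731841 and 3735921 on chromosome 16 the odd list had 507 and 477.5 reads per bin, the even list 482 at each and the LacZ list 231 and 217. At 3849311 the even list had 1288, the LacZ list 1142 and the odd list 330.5, so the order of odd and LacZ turned within the gene. That last region lay over the fixed score and the other shared ones did not. CREBBP also had 1 region in the odd list alone and 1 in the LacZ list alone.

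EIF3A, which encodes the largest subunit of translation initiation factor eIF3, had 2 regions of all 3 lists and 1 of odd and LacZ. Their odd reads per bin were 285, 596.3 and 521.5 along the chromosome, and their LacZ reads 51, 152.5 and 143. Further EIF3A regions were 1 of even and odd without LacZ, 1 in the odd list alone and 1 in the LacZ list alone. DDX23 (gene ID 9416), a helicase gene of the spliceosome, had 3 regions of even and LacZ and 2 in the even list alone. The shared ones had 1382, 949.5 and 613 even reads per bin at ranks 20, 39 and 96. Their LacZ reads were 60, 55 and 116 at ranks 579, 609 and 352. INCENP, which encodes a subunit of the chromosomal passenger complex of dividing cells, showed the opposite order by rank within the list. Its 3 regions of odd and LacZ had 344, 128 and 119 odd reads at ranks 137, 476 and 505. Their LacZ reads were 226.5, 334 and 280 at ranks 122, 59 and 81, so in the first region the odd reads were the higher ones. INCENP also had 3 regions in the LacZ list alone. MYH9, the heavy chain of a nonmuscle myosin, had 3 shared regions, 7 in the LacZ list alone and 1 in the odd list alone. ABCF1, which acts in translation, had 2 regions of even and LacZ and 1 of all 3, with even reads between 184 and 320.6 and LacZ reads between 95 and 138.5. It also had 1 region of even and odd without LacZ and 1 in the odd list alone.

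**Figure D4:**
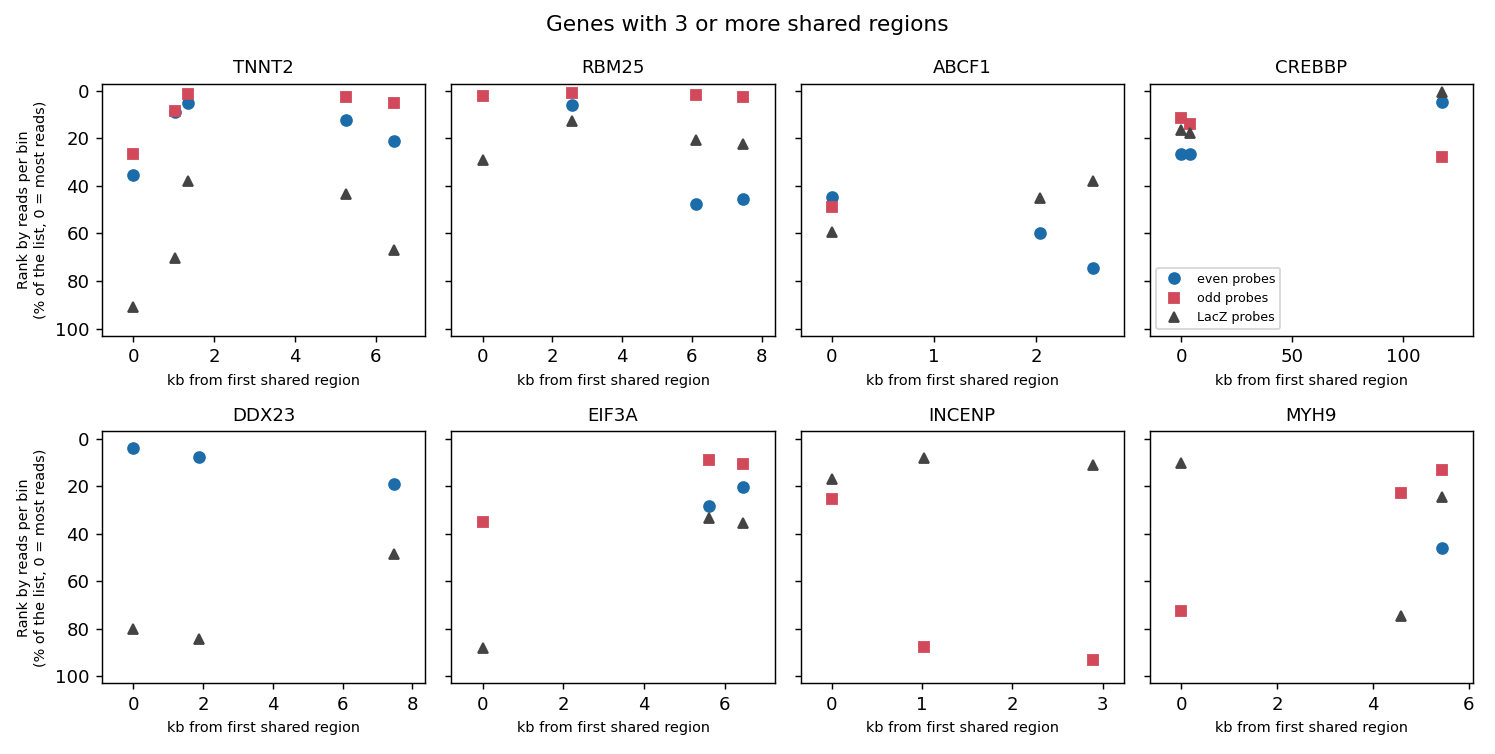
Rank by reads per bin (percent of the list, 0 at the top is the most reads) of the strongest peak in each list against the distance in kilobases from the first shared region, for the 8 genes with 3 or more shared regions; a missing symbol means that the list had no peak there. LacZ symbols lie below the even and odd ones throughout TNNT2 and above the odd ones throughout INCENP.

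CHAF1A and ANKRD11, whose product acts in chromatin, had 2 shared regions, each of all 3 lists. KANK2 had 1 of all 3 and 1 of even and LacZ, and FAM50A had 1 of all 3 and 1 of odd and LacZ. The other genes with 2 shared regions were SART3, GOLGA3, EIF2S2, CEP250, SRSF4, DNMT1, GIGYF2, AMOTL1, CHMP4A and PSMD2, with regions of 1 ZNF609 list and LacZ. In SART3, a gene for spliceosome recycling, even reads per bin were 1016 and 194 and LacZ reads 59 and 56.5. In GOLGA3, a Golgi coiled-coil protein gene, they were 415 and 567 with even and 123.7 and 119 with LacZ probes. EIF2S2, which encodes the beta subunit of eIF2, had 328 and 414 even and 132 and 159.5 LacZ reads. GIGYF2, a translation repressor gene, had 601.5 and 819 odd and 78 and 94 LacZ reads. SRSF4, a splicing factor gene, had 360 and 497 odd and 198 and 105 LacZ reads, so the stronger odd region was the weaker LacZ region. Shared regions of more than 1 class were found in 6 genes. For 49 of the 89 genes, the shared regions were the only ones, and 15 genes had a further region in the LacZ list alone.

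Among regions of even and LacZ without odd, the leading ones by mean rank lay in CHD6, YJU2, UBTF, IK and SAMD4A. CHD6, a chromatin remodeller gene, had 596 even and 397 LacZ reads in its single bin, at ranks 99 and 41. YJU2, a splicing factor gene, had 544.5 and 433.5 at ranks 113 and 34. IK, also of the spliceosome, had 630 and 199.7. SAMD4A, which encodes an RNA-binding repressor of translation, had 410 and 353, over bins with the fixed score. PPP5C, a phosphatase gene, had 295 and 232.5. In AHNAK2 the values were far apart, with 751 even reads per bin at rank 67 and 46.5 LacZ reads at rank 671.

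Among regions of odd and LacZ without even, SRRT came first, a gene for a factor that links the RNA cap to RNA processing, with 932.5 odd reads per bin at rank 18 and 297.3 LacZ reads at rank 72. ALPK3, a kinase gene of muscle, had 659.5 and 332 reads at ranks 38 and 60. The region in FABP3, a fatty acid binding protein gene, had 838 and 183 reads and also lies in ZCCHC17. A second region in ZCCHC17 had 1125 odd reads at rank 12 and 163 LacZ reads. TRAF3IP1, whose product acts in transport along cilia, had 539.3 LacZ reads at rank 21 and 266 odd reads at rank 211. DNMT1, the maintenance DNA methyltransferase gene, had 2 such regions with 220.2 and 457 odd and 91 and 163 LacZ reads per bin. It also had 1 region in the odd list alone and 1 of even and odd without LacZ. The latter had 898 even and 920 odd reads, so even probes did give a peak in this gene.

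A set of 9 shared regions included a peak with a score of 1 step, the lowest value seen: LNX2, AVPI1, MAP3K12, PLEKHA4 and MYO10 of all 3 lists, YJU2, PPP5C and DONSON of even and LacZ, and KIF1A of odd and LacZ. They were picked out after their values were seen. The 8 shared LacZ peaks at 1 step had a median rank of 12.1% of the LacZ list, against 81.7% for the 58 LacZ peaks at 1 step in all. The 8 even ones had a median rank of 39.1% against 79.3%, and the 5 odd ones 90.4% against 72.5%, so in the odd list they were not forward. In LNX2, AVPI1 and MAP3K12 the even list had 888.5, 593 and 432.5 reads per bin, the LacZ list 633.5, 540 and 335.5, and the odd list 248.5, 115 and 124. DONSON, a replication factor gene, had 215 even and 212 LacZ reads. KIF1A and MYO10, both motor protein genes, had LacZ peaks at ranks 408 and 721. At DONSON and AVPI1 the unscaled ratio of even to LacZ reads was 1.01 and 1.10. It was 1.26 at YJU2, 1.27 at PPP5C, 1.29 at MAP3K12, 1.40 at LNX2 and 3.84 at MYO10.

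Gene lists were then counted. Over all genes with a peak in any list, 89 of 847 (10.5%) held a shared region, and the lists are set beside that share. Of 52 genes of the actin and myosin cytoskeleton 22 had a peak and 7 a shared region (31.8% of 22, 13.9 to 54.9): MYH9, EZR, MYO10, NES, LMNA, PLEC and AHNAK2. NES encodes nestin, an intermediate filament protein, and LMNA the nuclear lamins A and C, so neither is actin or myosin. Without the intermediate filament genes NES, VIM and LMNA, a choice made after the values were seen, it was 5 of 20 genes (95% interval 8.66% to 49.1%), which takes in 10.5%. EZR, which encodes the membrane and actin linker ezrin, had 376 even, 326 odd and 131 LacZ reads in 1 bin. Of 43 translation factors 10 had a peak and 3 a shared region (95% interval of the share 6.67% to 65.2%), EIF3A, EIF2S2 and ABCF1, with 8 regions between them. Of 67 annotated splicing and RNA binding genes 31 had a peak and 5 a shared region (16.1%, 5.45 to 33.7): RBM25, PRRC2C, NCL, SRSF4 and SF3A1. SF3A1 had 214.5 even and 259.5 LacZ reads per bin. Several spliceosome genes with shared regions, among them DDX23, SART3, YJU2 and IK, were not on that list.

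Of 84 chromatin and transcription genes 34 had a peak and 5 a shared region (14.7%, 4.95 to 31.1), in CREBBP, CHD6, UBTF, SUPT6H and SMARCC2. Of 75 microtubule and centrosome genes 21 had a peak and 4 a shared region (19.05%, 5.45 to 41.9), in INCENP, CEP250, MAP1A and KIF1A. MAP1A, which encodes a microtubule-associated protein, had 261 even and 91 LacZ reads per bin. CKAP5, the microtubule gene that the study's title names, was not among them. Of 61 nucleolar and ribosome assembly genes 23 had a peak and 2, NCL and UBTF, a shared region (8.70%, 1.07 to 28.04). The ubiquitin and proteasome list gave 2 of 8, LNX2 and PSMD2, and the matrix and adhesion list 2 of 12, COL6A1 and CDH15. Of 39 muscle genes 8 had a peak and 2, TNNT2 and CDH15, a shared region (25%, 3.19 to 65.1). Apart from the actin and myosin list with its intermediate filament genes, the interval of each list takes in 10.5%, so no list is read as standing apart.

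Markers of cell types were counted too. Of 15 muscle lineage markers 5 had a peak in any list, DES, TNNT1, TNNT2, ACTC1 and CDH15, and MYOD1 and MYOG had 0. Of 7 immune and blood markers 0 had a peak, and of 4 epithelial markers KRT18 did. A peak list does not measure expression, and a marker without a peak may still be expressed. The share of all annotated genes with a peak is not given here, so these counts cannot test the labelled cell type. Of the muscle markers TNNT2 and CDH15 had shared regions. CDH15, which encodes the muscle cadherin, had 221 even and 94.3 LacZ reads per bin.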

How the data were processed

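Pull-downs of RD cells with even, odd and LacZ probes were analysed, 1 library each. The submitters' processing notes name the build GRCh38 and the tools STAR 2.5.2b, bcl2fastq 2.0.2, SAMtools, Picard, Trimmomatic and bedtools, without settings. No source here says how duplicate reads were treated. Piranha appears in the lists' names as the caller of the peaks. The lists have 8 columns and no header. The signal deposited by the authors (column 5) was read from its values as reads per bin of 170 bases, or the mean over the bins of a peak, with no scaling seen. Each peak has a p-value deposited by the authors, under 0.01 throughout. Column 8 is an unnamed score deposited by the authors, taken as whole steps of 1/4434 per bin (tolerance 0.005 steps) or the fixed value 0.01.

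Overlaps of at least 1 base, merged regions, ranks and exact Clopper-Pearson 95% intervals were computed with Python 3.11.15, pandas 2.3.3, numpy 2.4.6 and scipy 1.17.1, after the functions were tested on simulated data. Genes came from RefSeq spans on GRCh38.p14 by most overlapping bases, then protein-coding genes, then the shorter gene. Exons were not used here. Coordinates count from 1. Named were the leading 10 regions of all 3 lists and 8 of each pair by mean rank, genes with 2 or more shared regions, the region outside genes, and up to 4 members of a list; further genes were named after their values were seen. The members and gene lists were chosen with earlier results of these data known. A planned description of member proteins was not made. Alternatives were other overlap rules, a p-value limit of 0.001, lists of equal length, and no peaks over the fixed value.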

Additional observations from a re-analysis of the deposited data

How the results depend on the processing

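Of 52 alternative values over 15 results, 42 stayed close to the reported one and 10 did not. With a p-value limit of 0.001, the share of odd peaks that overlapped a LacZ peak was 9.35%, that of LacZ peaks that overlapped an even or odd peak 10.9%, the regions of even and LacZ numbered 16, those of odd and LacZ 5 and those of all 3 lists 8, in 24 genes, which were all among the 89. This limit tests fewer peaks, 174 even, 139 odd and 267 LacZ. In lists shortened to 502 peaks each, 11.6% of even peaks overlapped a LacZ peak. These lists had 26 regions of even and LacZ (35 in the full lists), 35 of odd and LacZ (49) and 32 of all 3 (39). They lay in 70 genes (89), and these lower counts were still called close. Without peaks over the fixed value, 21.0% of LacZ peaks were shared and 100% of shared regions lay in genes. Ranked by p-value, shared odd peaks had a median rank of 45.8%. Where no value shows the cause, it was not tested. With a reciprocal overlap of 50% there were 84 genes and with a distance of 200 bases 94. No paired analysis was possible because each probe set had 1 library, so there was no replicate to leave out. The share of charged residues in member proteins was not run. Depth outside peaks is unknown, so a place without a peak cannot be read as a place without reads.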
